A study of Homo sapiens with 16 samples.

Results

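A set of 8 genes of macroautophagy, the pathway by which a cell wraps its own cytoplasm in a membrane and delivers it to the lysosome, were followed in MCF10A cells over 45 h with the HER2 kinase inhibitor CP724,714. They are SQSTM1, MAP1LC3B, GABARAP, GABARAPL1, GABARAPL2, WIPI1, ULK1 and BECN1, taken by symbol from the deposited intensities, and each has 1 row on the array. These 8 rows are among 20589 rows for 18190 symbols, and all 8 were among the 11957 rows bright enough to be tested. MCF10A is a nontransformed human breast epithelial line that carries HER2 only as the proto-oncogene, and it was grown without serum in Ham's F-12 medium with insulin, epidermal growth factor and hydrocortisone. The 0 h array is from cells without inhibitor, and the other 15 arrays are from parallel plates kept in 1 µM CP724,714 for 3 to 45 h in steps of 3 h, with 1 array at each time. Medium was renewed when the inhibitor was added and no untreated plate was collected later, so inhibitor, fresh medium and time in culture cannot be told apart in any change described here.

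In the textbook order of the pathway, the ULK1 kinase complex starts the membrane, and it is held back by mTORC1 when amino acids and insulin are plentiful. The lipid kinase complex that contains Beclin 1, the product of BECN1, then marks the membrane with phosphatidylinositol 3-phosphate, and WIPI proteins bind that lipid. Proteins of the ATG8 family, here MAP1LC3B, GABARAP, GABARAPL1 and GABARAPL2, are attached to the growing membrane, where the receptor p62, the product of SQSTM1, docks with its cargo and is degraded with it. The arrays measured RNA. Neither the lipid-bound ATG8 proteins nor the breakdown of cargo was measured, and fewer RNA molecules per cell cannot be told apart from fewer cells that hold them.

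The promoters of 5 of the genes are shown because they cover both courses found below: 4 genes whose RNA was called lower from 0-9 h to 12-21 h and higher from 24-33 h to 36-45 h, and BECN1, which was called in neither. All 8 genes had an entry among the RefSeq promoter sequences (GRCh38.p14), with 10 windows in all because SQSTM1 has 3 annotated starts. Each sequence is the 250 bases before an annotated start, read 5′ to 3′ on the strand of the gene, and capitals mark matches to the motifs searched. They lie at chr16:87392086-87392335 (plus strand) for MAP1LC3B, chr12:10212627-10212876 (plus) for GABARAPL1, chr17:68457497-68457746 (minus) for WIPI1, chr12:131894372-131894621 (plus) for ULK1 and chr17:42823880-42824129 (minus) for BECN1. The BECN1 window lies inside the span of the gene (42810132 to 42824282), before an inner annotated start. The windows of the other 4 genes shown lie just outside their gene spans.
MAP1LC3B: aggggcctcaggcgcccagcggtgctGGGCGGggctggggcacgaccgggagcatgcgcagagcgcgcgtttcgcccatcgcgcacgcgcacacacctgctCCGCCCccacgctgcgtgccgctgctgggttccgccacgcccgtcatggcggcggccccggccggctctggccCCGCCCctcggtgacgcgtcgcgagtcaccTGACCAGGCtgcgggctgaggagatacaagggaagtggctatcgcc
GABARAPL1: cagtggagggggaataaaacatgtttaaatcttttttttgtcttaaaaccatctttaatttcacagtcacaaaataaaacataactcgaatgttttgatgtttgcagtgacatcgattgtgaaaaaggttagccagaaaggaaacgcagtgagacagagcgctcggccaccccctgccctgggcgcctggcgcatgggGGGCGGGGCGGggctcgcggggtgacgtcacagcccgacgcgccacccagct
WIPI1: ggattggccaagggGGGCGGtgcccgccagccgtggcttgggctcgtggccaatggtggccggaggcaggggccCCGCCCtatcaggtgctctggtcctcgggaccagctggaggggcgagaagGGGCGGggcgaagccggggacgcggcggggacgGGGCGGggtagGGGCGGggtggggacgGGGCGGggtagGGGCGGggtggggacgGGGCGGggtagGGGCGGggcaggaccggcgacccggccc
ULK1: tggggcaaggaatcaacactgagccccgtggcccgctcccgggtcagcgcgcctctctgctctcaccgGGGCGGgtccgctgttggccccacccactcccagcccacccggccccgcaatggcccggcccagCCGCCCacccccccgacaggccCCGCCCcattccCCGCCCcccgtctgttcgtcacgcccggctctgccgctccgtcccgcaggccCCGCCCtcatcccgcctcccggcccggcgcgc
BECN1: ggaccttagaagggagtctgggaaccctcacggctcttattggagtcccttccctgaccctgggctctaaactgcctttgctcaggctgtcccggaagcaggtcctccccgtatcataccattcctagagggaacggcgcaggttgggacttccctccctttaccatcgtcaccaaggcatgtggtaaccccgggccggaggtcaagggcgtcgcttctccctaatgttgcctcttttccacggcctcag

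The motifs were searched on both strands of these windows. The GC box GGGCGG, the letters bound by SP1, was found in windows of 7 of the 8 genes. It was in 9 of the 10 windows, beside 42.6% of all 35116 promoter windows. There were 9 matches for WIPI1, 5 for ULK1, 3 each for MAP1LC3B and GABARAPL2, and more than 1 in each of the 3 windows of SQSTM1. The 2 copies in GABARAPL1 overlap by their last and first base. BECN1 was the gene without a GC box, in a window that lies inside the span of the gene. The windows of the other genes shown lie just outside theirs, so these windows are not alike in position. The antioxidant response element core TGACNNNGC, which NRF2 binds, matched once, at base -46 counted from the start of MAP1LC3B, and 10.9% of all windows hold it. The E-box CACGTG (6.34% of all windows), the M-box TCATGTG (2.52%), the FOXO motif TGTTTAC (2.98%) and the amino acid response element TGATGNAA (3.14%) had no match in any of the 10 windows. These are matches of letters within 250 bases and no statement on what binds there.

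The RNA of 7 of the 8 genes was lower on average at 12 to 21 h than at 0 to 9 h. It was higher at 36 to 45 h than at 24 to 33 h, with a step up between 33 and 36 h. The RNA of BECN1 remained within a 1.21-fold range after normalization, and within 1.37-fold in deposited intensities. Levels are given as log2 of the background-corrected and quantile-normalized intensity, so a difference of 1 is a doubling, and they are compared only within a gene, since the probes of different genes differ in brightness. Time dependence was tested with limma's F-test on a smooth curve of time (a natural cubic spline), and called at a Benjamini-Hochberg adjusted p under 0.05 over all tested rows. It called 7 of the 8 genes, beside 54.6% of all rows tested, with adjusted p from 1.4e-06 for GABARAPL1 to 0.00014 for GABARAP. BECN1 had an adjusted p of 0.75. Changes were also tested in limma between means of 4 consecutive arrays, called windows here: 0 to 9 h, 12 to 21 h, 24 to 33 h and 36 to 45 h. The 4 arrays of a window are not replicates of a condition, and the SD of a window includes any drift within it.

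**Figure D1:**
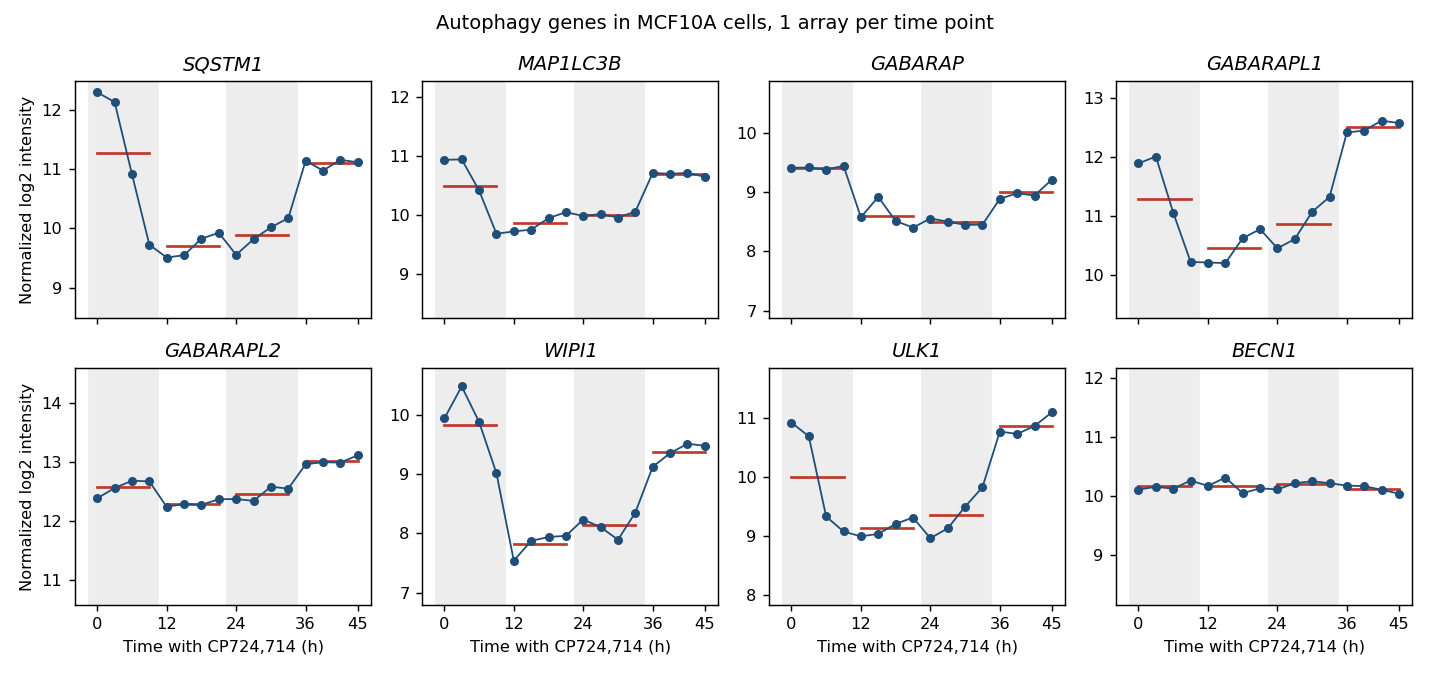
Normalized log2 intensity (vertical axis) against hours with CP724,714 (horizontal axis) for each gene, with 1 point for each array, red bars for the means of the 4 windows and grey shading for the windows of 0 to 9 h and 24 to 33 h. All panels span the same log2 height: SQSTM1 ran from 12.30 at 0 h to 9.51 at 12 h, while BECN1 stayed between 10.04 and 10.31.

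ULK1 encodes the serine-threonine kinase at the head of the pathway. Its row (ILMN_2158, gene on chromosome 12, 131894622 to 131923150) combines the values of several probes, and its detection p was under 0.05 on only 3 arrays, those of 3, 9 and 36 h, although its deposited intensity was 673 to 2099 on every array against array medians of 210 to 254. It read 10.92, 10.69, 9.33 and 9.08 at 0, 3, 6 and 9 h, then 8.99, 9.04, 9.21 and 9.31 from 12 to 21 h. The values were 8.96, 9.13, 9.50 and 9.82 from 24 to 33 h, and 10.77, 10.73, 10.86 and 11.09 from 36 to 45 h. ULK1 was thus high on the 0 h and 3 h arrays, low on the 9 that followed through 30 h with values edging up from 12 to 21 h, and back at its starting level at the end. Its biggest step down, -1.36 on the log2 scale, lay between the 3 h and 6 h arrays. The window mean fell by 0.87 from 0-9 h to 12-21 h (limma, 95% interval -1.52 to -0.21, adjusted p = 0.043), a call that held in 8 of 22 alternative settings. It rose by 1.51 from 24-33 h to 36-45 h (0.86 to 2.16, adjusted p = 0.00092), and there all 4 late arrays lay above all 4 before them.

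BECN1 (ILMN_27297, chromosome 17, 42810132 to 42824282) encodes the scaffold of the class III phosphatidylinositol 3-kinase complex. Its 4 window means were 10.16 ± 0.07, 10.16 ± 0.11, 10.20 ± 0.06 and 10.12 ± 0.06 (SD, 4 arrays each), with the highest array at 15 h and the lowest at 45 h. The windows overlapped throughout. Its change from 24-33 h to 36-45 h was -0.08 in limma (95% interval -0.24 to 0.09, adjusted p = 0.48), and its change over the whole series was -0.04 (-0.20 to 0.12, adjusted p = 0.73). Under median scaling in place of quantile normalization the spline test called BECN1 (limma, adjusted p = 0.020).

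WIPI1 (ILMN_19646, chromosome 17, 68421281 to 68457496) encodes a WD-repeat protein that binds phosphatidylinositol 3-phosphate on the forming membrane. Of the 8 genes it had the widest range, 7.70-fold between its highest array at 3 h and its lowest at 12 h. It read 9.94, 10.48, 9.89 and 9.02 from 0 to 9 h, 7.54, 7.87, 7.94 and 7.96 from 12 to 21 h, 8.24, 8.11, 7.89 and 8.35 from 24 to 33 h, and 9.13, 9.36, 9.52 and 9.48 from 36 to 45 h. All 4 arrays of the opening window were above every array from 12 to 33 h, and so were all 4 late arrays, which stayed below those of 0, 3 and 6 h. Its biggest step down, -1.48 on the log2 scale, lay between 9 and 12 h, later than the biggest ones of SQSTM1, ULK1 and GABARAPL1, which lay between 3 and 6 h. The window mean fell by 2.004 from 0-9 h to 12-21 h (limma, 95% interval -2.46 to -1.55, adjusted p = 6e-06) and rose by 1.22 from 24-33 h to 36-45 h (0.77 to 1.68, adjusted p = 0.00026).

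MAP1LC3B encodes LC3B, the ATG8 protein most used as a marker of autophagosomes. Its row (ILMN_29693, chromosome 16, 87392336 to 87404774) read 10.93, 10.94, 10.41 and 9.68 from 0 to 9 h, 9.72, 9.75, 9.95 and 10.05 from 12 to 21 h, 9.98, 10.02, 9.96 and 10.06 from 24 to 33 h, and 10.71, 10.70, 10.71 and 10.65 from 36 to 45 h. The 9 h array was the lowest of the series, and the 8 arrays from 12 to 33 h lay within a narrow band above it. The window mean fell by 0.63 from 0-9 h to 12-21 h (limma, 95% interval -1.03 to -0.22, adjusted p = 0.019) and rose by 0.69 from 24-33 h to 36-45 h (0.29 to 1.09, adjusted p = 0.0083). MAP1LC3B2 is a near-identical gene, and GABARAPL1 has a near-identical copy in GABARAPL3, so the signal of either probe may include its copy.

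GABARAPL1 encodes an ATG8 protein of the GABARAP branch. Its row (ILMN_5224, chromosome 12, 10212877 to 10223128) read 11.89, 12.01, 11.06 and 10.23 from 0 to 9 h, 10.22, 10.21, 10.63 and 10.78 from 12 to 21 h, 10.46, 10.61, 11.07 and 11.32 from 24 to 33 h, and 12.41, 12.45, 12.61 and 12.57 from 36 to 45 h. All 4 late arrays exceeded every other array, including 0 h, and the 45 h array stood 1.60-fold above the 0 h array. The mean of 36-45 h was 1.64 above that of 24-33 h (limma, 95% interval 1.04 to 2.25, adjusted p = 0.00024), the largest late rise of the 8 genes, and 1.22 above that of 0-9 h (0.61 to 1.82, adjusted p = 0.0039). With only 0 and 3 h against 42 and 45 h, the difference of GABARAPL1 was 0.64 and the call was lost (limma, adjusted p = 0.066). The early fall was 0.84 (-1.45 to -0.23, adjusted p = 0.037), and it passed in 16 of 23 alternative settings.

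GABARAP and GABARAPL2 encode the other ATG8 proteins of that branch, and neither was lower at 9 h than at 0 h. GABARAP (ILMN_19419, chromosome 17, 7240008 to 7242449) read 9.41, 9.42, 9.38 and 9.45 from 0 to 9 h and 8.58, 8.92, 8.51 and 8.40 from 12 to 21 h, with no overlap between these windows. It then lay between 8.45 and 8.56 from 24 to 33 h and between 8.89 and 9.21 from 36 to 45 h. In limma its mean fell by 0.81 to 12-21 h (95% interval -1.04 to -0.58, adjusted p = 5.1e-05), rose by 0.52 to 36-45 h from 24-33 h (0.28 to 0.75, adjusted p = 0.0013) and remained 0.41 under that of 0-9 h at the end, so that GABARAP was the gene of the 8 called lower at the end (change -0.41, -0.64 to -0.17, adjusted p = 0.0093). This last call held in 23 of 26 alternative settings. With 0 and 3 h against 42 and 45 h it was lost (change -0.34, limma adjusted p = 0.11).

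GABARAPL2 (ILMN_9805, chromosome 16, 75566379 to 75577881) had the narrowest range of the 7 genes after normalization, 1.83-fold between 45 h and 12 h, and the smallest early fall. In deposited intensities the range was 1.72-fold for GABARAPL2 and 1.69-fold for GABARAP. The window means of GABARAPL2 were 12.57 ± 0.14, 12.29 ± 0.05, 12.46 ± 0.12 and 13.01 ± 0.07 (SD, 4 arrays each), with 12.96, 12.99, 12.99 and 13.11 on the 4 late arrays, which were above all others. In limma the fall to 12-21 h was 0.28 (95% interval -0.43 to -0.13, adjusted p = 0.0078), a call that did not hold under median scaling (adjusted p = 0.42). The late rise was 0.55 (0.40 to 0.71, adjusted p = 1.5e-05), and the mean of 36-45 h was 0.44 above that of 0-9 h (0.29 to 0.59, adjusted p = 0.0002). Its 45 h array was 1.65-fold above its 0 h array.

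SQSTM1 encodes p62, a receptor that carries ubiquitin-tagged cargo into autophagosomes, and its RNA had the largest difference of the 8 between the 0 h and 9 h arrays. Its row (ILMN_22135, chromosome 5, 179806393 to 179838078) read 12.30, 12.13, 10.91 and 9.73 at 0, 3, 6 and 9 h, 5.96-fold lower at 9 h than at 0 h. It then read 9.51, 9.55, 9.83 and 9.93 from 12 to 21 h, 9.55, 9.82, 10.02 and 10.17 from 24 to 33 h, and 11.14, 10.98, 11.16 and 11.12 from 36 to 45 h. The late arrays were above all those from 6 to 33 h and below those of 0 and 3 h, and the 45 h array was at 0.44 of the 0 h level. In limma the window mean fell by 1.57 to 12-21 h (95% interval -2.35 to -0.79, adjusted p = 0.0042) and rose by 1.21 from 24-33 h to 36-45 h (0.43 to 1.99, adjusted p = 0.016). From 0-9 h to 36-45 h the change was -0.17 (-0.95 to 0.61, adjusted p = 0.76), with the steep descent of SQSTM1 inside the opening window (SD 1.20). When the 0 and 3 h arrays alone were set against those of 42 and 45 h, SQSTM1 was 1.08 lower at the end (change -1.08, limma adjusted p = 0.0038).

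Set side by side, the genes differed in when they fell. The 0 h array exceeded the 9 h array 5.96-fold for SQSTM1, 3.58-fold for ULK1, 3.17-fold for GABARAPL1, 2.37-fold for MAP1LC3B and 1.90-fold for WIPI1, while GABARAP and GABARAPL2 were no lower at 9 h than at 0 h. A fall of at least 1.7-fold between these single arrays, which has no test and was looked at after the values were seen, was met by 5 of the 8 genes and by 7.68% of all rows tested. The biggest 3 h drop lay between 3 and 6 h for SQSTM1, ULK1 and GABARAPL1, between 6 and 9 h for MAP1LC3B, and between 9 and 12 h for GABARAP, GABARAPL2 and WIPI1. From 0-9 h to 12-21 h limma called 7 of the 8 genes lower and none higher, beside 14.4% of all rows tested lower and 15.1% higher. The median change was -0.82 over the 8 genes and -0.00 over all rows tested. That count was 3 of 8 under median scaling (SQSTM1, GABARAP and WIPI1), and 4 without the array of 0, 3, 12 or 15 h.

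**Figure D2:**
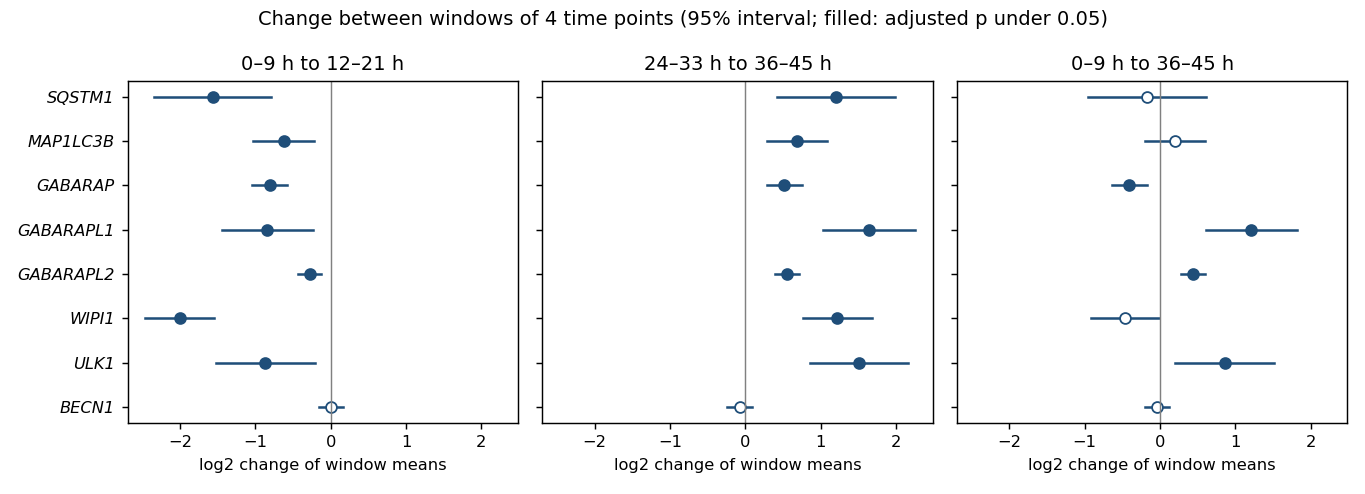
Log2 change of window means (horizontal axis) for each gene, from 0-9 h to 12-21 h, from 24-33 h to 36-45 h and from 0-9 h to 36-45 h, with 95% intervals from limma and filled points where the adjusted p was under 0.05. The 7 genes that fell (-2.004 to -0.28) are the 7 that later rose (0.52 to 1.64), and the net change was above 0 and called for GABARAPL1, ULK1 and GABARAPL2, and below 0 and called for GABARAP.

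The middle of the series was quiet by this test. From 12-21 h to 24-33 h limma called none of the 8 genes in either direction, beside 0% of all rows tested higher and 0.0251% lower, and at an unadjusted p under 0.05 only GABARAPL2 was higher, by 0.17. Within that later window the 33 h array was above the 24 h array by 0.87 for GABARAPL1, 0.86 for ULK1 and 0.62 for SQSTM1, with no test. Rows never above background read 182 to 192 (median intensity) on the arrays of 0 to 21 h and 160 to 179 on those of 24 to 45 h. No chip or hybridization batch is named. The early fall and the late rise each lie on 1 side of that shift.

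The late rise was the most uniform movement. The array of 36 h exceeded that of 33 h 2.13-fold for GABARAPL1, 1.96-fold for SQSTM1, 1.92-fold for ULK1, 1.71-fold for WIPI1, 1.57-fold for MAP1LC3B, 1.35-fold for GABARAP and 1.33-fold for GABARAPL2, and it stood at 0.97 of it for BECN1. For each of the 7 genes this was the largest rise between neighbouring arrays, and the 4 arrays after it stayed apart from the 4 before it. That step was picked after the values were seen. A rise of at least 1.7-fold there, again with no test, was met by 4 of the 8 genes and by 3.41% of all rows tested. From 24-33 h to 36-45 h limma called 7 of the 8 genes higher and none lower, beside 19.3% of all rows tested higher and 18.7% lower, and the median change was 0.95 over the 8 genes and -0.00 over all rows. Of 23 alternative settings, 22 gave the same 7 calls, and the one that required detection on all 16 arrays left out ULK1 and gave 6.

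Over the whole series, from 0-9 h to 36-45 h, GABARAPL1, ULK1 and GABARAPL2 were called higher and GABARAP lower, beside 16.2% of all rows tested higher and 15.0% lower. These changes span the shift in background between 21 and 24 h. With that step taken out, a setting chosen after seeing the data in which all 4 window means enter and widen the error, none of the 4 calls held: the change was 0.81 for GABARAPL1 (adjusted p = 0.22), 0.64 for ULK1 (adjusted p = 0.38), 0.27 for GABARAPL2 (adjusted p = 0.09) and -0.29 for GABARAP (adjusted p = 0.24). With 0 and 3 h against 42 and 45 h, GABARAPL2 was called higher, and SQSTM1 and WIPI1 lower. From 0-9 h to 36-45 h, ULK1 was 0.86 higher (limma, 95% interval 0.21 to 1.51, adjusted p = 0.043), and this call held in 9 of 25 alternative settings. Between those same windows the difference was 0.20 for MAP1LC3B (-0.20 to 0.60, adjusted p = 0.46) and -0.46 for WIPI1 (-0.92 to -0.01, adjusted p = 0.11), and neither was called there. The opening window mixes the untreated level with the fall, so against the 0 h array alone, with no test, the 45 h array stood at 1.65-fold for GABARAPL2, 1.60-fold for GABARAPL1, 1.13-fold for ULK1, 0.95 for BECN1, 0.87 for GABARAP, 0.82 for MAP1LC3B, 0.73 for WIPI1 and 0.44 for SQSTM1.

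The courses of the genes resembled each other to different degrees. Over the 16 arrays, which share one time course, the closest pair was GABARAPL1 and ULK1 (Pearson r = 0.97), followed by SQSTM1 and MAP1LC3B (0.96), while GABARAP and GABARAPL1 had 0.37 and BECN1 had -0.48 to -0.09 with the other 7. The rows of other genes most like ULK1 were MXD4 (0.99), SSBP2 and RNF103, and those most like GABARAPL1 were CSNK2A2, YPEL5 and YPEL3 (each 0.98). SQSTM1 was followed most closely by NEU1, a lysosomal sialidase (0.98), GPR56 and FNBP1L, and MAP1LC3B by the desmosomal cadherin DSC3 (0.98), C2orf17 and FXYD3. GABARAP ran most like C10orf92 (0.98), the lysosomal protease gene CTSD (0.96) and the ferritin heavy chain gene FTH1 (0.95). GABARAPL2 ran most like LMBRD1, CASP4 and MAPK3 (0.97 each), and WIPI1 most like FLT4 (0.98), FADS3 and ORF1-FL49. For BECN1 the closest row, ZNF468, reached 0.83. These are the highest of all tested rows and are given as a description.

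A wider list of 73 other autophagy genes, ordered by role, was set beside the 8. The array carries 68 of them, and 60 rows were tested. From 24-33 h to 36-45 h limma called 24 of the 60 higher (40%) and 6 lower (10%), with a median change of 0.23, beside 19.3% and 18.7% of all rows. From 0-9 h to 12-21 h it called 14 lower (23.3%) and 7 higher (11.7%), beside 14.4% and 15.1% of all rows. From 0-9 h to 36-45 h it called 20 higher (33.3%) and 5 lower (8.33%), beside 16.2% and 15.0%. The spline called 35 of the 60 (58.3%), close to the 54.6% of all rows.

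**Figure D3:**
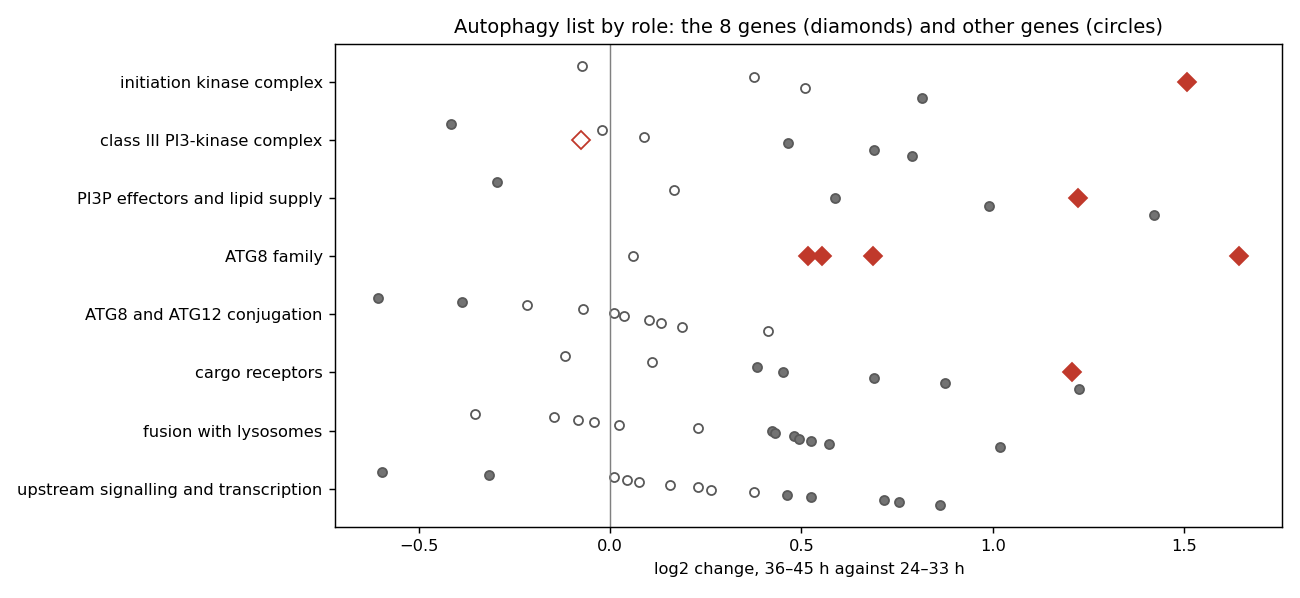
Log2 change from 24-33 h to 36-45 h (horizontal axis) for the tested rows of the autophagy list by role (vertical axis), with diamonds for the 8 genes, circles for other genes and filled symbols where limma's adjusted p was under 0.05. Cargo receptors (5 of 7 other rows) and fusion genes (7 of 13), beside 19.3% of all rows higher, have filled circles only to the right of 0. Conjugation genes (2 of 10, beside 18.7% of all rows lower) have them only to its left.

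In the initiation complex, RB1CC1, the scaffold also called FIP200 that holds ULK1, rose by 0.82 late (limma, adjusted p = 0.00025) with a small early difference of -0.11 (adjusted p = 0.62). ATG101, listed under its older symbol C12orf44, is another subunit, with a late difference of -0.07 (adjusted p = 0.65) after an early change of -0.57 (adjusted p = 0.00097). Its mean was 11.25 ± 0.24 at 0-9 h and 10.58 ± 0.08 at 36-45 h (SD, 4 arrays each), a whole-series change of -0.67 (limma, adjusted p = 0.00017). ULK1 was the gene of this complex with the largest late rise.

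Some partners of BECN1 in the lipid kinase complex passed the test that it did not. PIK3C3, the catalytic subunit VPS34, rose by 0.47 late (limma, adjusted p = 0.0069), and ATG14, listed as KIAA0831, which steers the complex to autophagy, rose by 0.79 (adjusted p = 0.012). The regulatory subunit gene PIK3R4 fell by 0.41 (adjusted p = 0.0053). Of the 6 tested rows of this role other than BECN1, 3 were called higher late and 1 lower, beside 19.3% and 18.7% of all rows tested.

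Among the proteins that bind the lipid or supply membrane, ZFYVE1 (DFCP1) rose by 1.42 late (limma, adjusted p = 0.0025), with an early change of -0.74 that missed the threshold (adjusted p = 0.11), on a combined row above background on 9 arrays. WDR45B, a relative of WIPI1 listed as WDR45L, fell by 0.29 late (adjusted p = 0.009), and its mean was 0.38 lower at 36-45 h than at 0-9 h (change -0.38, adjusted p = 0.0018). WDR45, another relative of WIPI1 on a combined row above background on 7 arrays, fell by 0.91 early (adjusted p = 2.2e-05) and rose by 0.99 late (adjusted p = 3.8e-06), the same signs as WIPI1.

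The conjugation enzymes load ATG8 proteins onto the membrane. None of their 10 tested rows was called higher late, and 2 were called lower, a share near the 18.7% of all rows lower. ATG4C fell by 0.61 (limma, adjusted p = 0.0016) and ATG3 by 0.39 (adjusted p = 0.0013). ATG7, the E1-like enzyme, was 0.47 higher at 12-21 h than at 0-9 h (adjusted p = 0.0035), where the 4 ATG8 genes fell, with a late difference of 0.04 (adjusted p = 0.83). ATG16L1 was lower at 36-45 h than at 0-9 h (change -0.40, adjusted p = 0.012). The other ATG8 row tested, MAP1LC3A, had a late difference of 0.06 (adjusted p = 0.81).

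Among cargo receptors besides SQSTM1, 5 of 7 tested rows were called higher late and none lower, beside 19.3% and 18.7% of all rows tested. BNIP3L, a mitophagy receptor, fell by 0.81 early (limma, adjusted p = 6.6e-06) and rose by 0.88 late (adjusted p = 1.1e-06). OPTN fell by 1.04 (adjusted p = 0.00082) and rose by 1.23 (adjusted p = 0.00011), close to the late rise of SQSTM1, 1.21. CALCOCO2 (NDP52) had a mean of 6.37 ± 0.30 at 0-9 h and 7.56 ± 0.34 at 36-45 h (SD, 4 arrays each), a rise of 1.19 (adjusted p = 8.9e-05). Its row was dim early, with an intensity of 228 at 0 h, and was above background on 15 arrays, all but that of 0 h. BNIP3 and FUNDC1, also mitophagy receptors, had late differences of 0.11 and -0.12 (adjusted p = 0.49 and 0.32).

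Of the genes for fusion with the lysosome, 7 of 13 tested rows were called higher late, beside 19.3% of all rows tested. The tethering subunit genes differed: VPS41 (a combined row) rose by 0.48 late (limma, adjusted p = 0.00032), and VPS18 fell by 0.88 early (adjusted p = 0.00019) with a late difference of 0.23 (adjusted p = 0.21). LAMP2 has 2 rows that disagree, with late changes of 1.02 (adjusted p = 2.3e-07) and 0.02 (adjusted p = 0.86), and so has VPS16 (0.43, adjusted p = 0.00062, and -0.08, adjusted p = 0.74).

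Of the upstream regulators, 5 of 14 tested rows were called higher late and 2 lower, beside 19.3% and 18.7% of all rows tested. TSC1 and TSC2, which together restrain mTORC1, rose by 0.75 (limma, adjusted p = 0.0074) and 0.53 (adjusted p = 0.0038), RRAGD, a GTPase of nutrient sensing, by 0.86 (adjusted p = 7e-06), and FOXO1, listed as FOXO1A, by 0.72 (adjusted p = 0.0031). MTOR itself, listed as FRAP1, fell by 0.59 late (adjusted p = 0.012), after a mean 0.54 higher at 12-21 h than at 0-9 h (adjusted p = 0.026), the reverse of the order seen in the 7 genes. ATG4C, ATG3 and PIK3R4 had that reverse order too. Before their late falls they were higher at 12-21 h by 0.59, 0.30 and 0.46 (limma, adjusted p = 0.0033, 0.011 and 0.0035). Outside the 2 genes of largest whole-series change in each role, the genes named in these paragraphs on roles were picked after their values were seen.

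**Figure D4:**
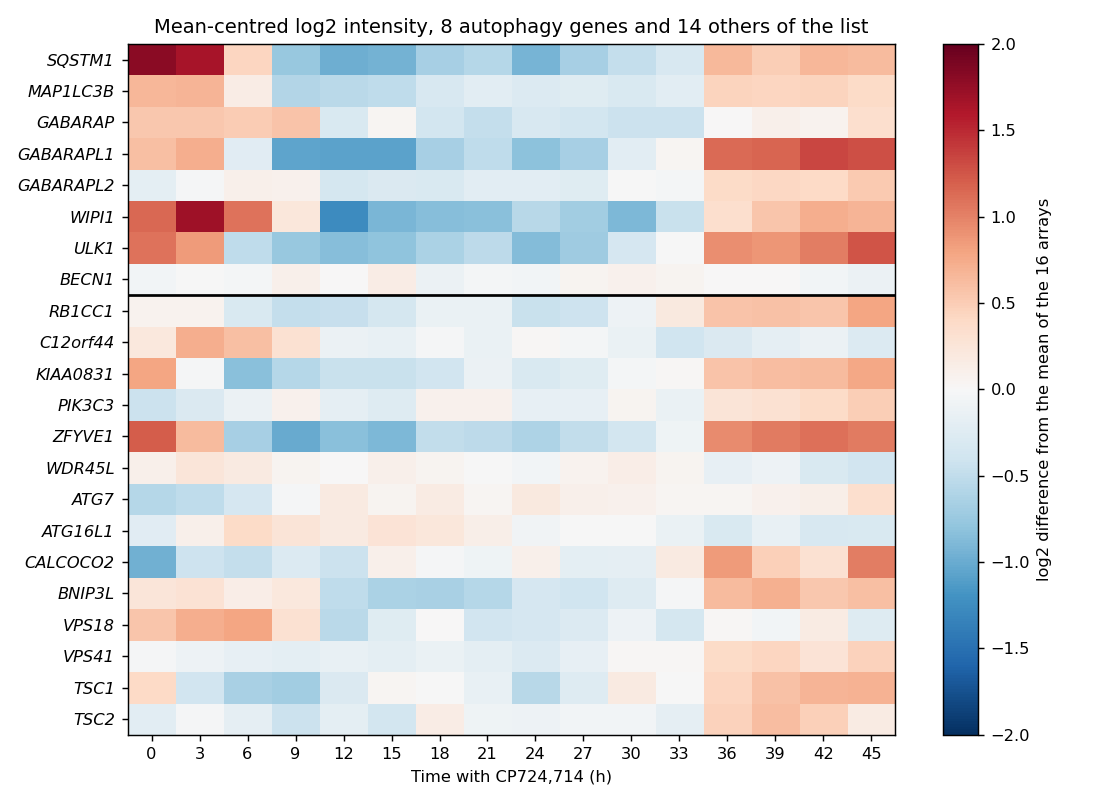
Mean-centred log2 intensity (colour, clipped at -2 and 2) for each of the 8 genes and 14 others of the list (rows) on the 16 arrays (columns, hours with CP724,714). Red at 0 and 3 h, blue from 9 to 30 h and red from 36 h is seen for SQSTM1, MAP1LC3B, GABARAPL1 and ULK1, with ZFYVE1 alike, and BECN1 stays pale.

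The arrays were alike in the share of rows above background, 50.1% to 52.9%. Their median intensity was 210 to 254, with the lowest at 45 h. Of 9 mammary epithelial markers 6 were above background on all arrays and 3 on some (KRT14 on 1, TP63 on 10 and ERBB2 on 11). ERBB2 encodes HER2, and its rows were dim: 1 was above background on 11 arrays (median intensity 241) and the other on 0 (median 213). None of 6 fibroblast markers was above background on any array. Among leukocyte markers CD14 was above background on 12 arrays (median intensity 266) and PTPRC on up to 5, and of 3 endothelial markers PECAM1 (median 309) and KDR (median 250.4) on 15, beside a median of 253 for the epithelial CDH1. CD3E and CDH5 were above it on none, and the part of other cell types in the changes was not tested.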

How the data were processed

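RNA from parallel MCF10A plates at 16 time points was hybridised by the authors to 1 Illumina human Ref8v2 array each. The authors deposited linear intensities without normalization between arrays, with a detection p-value deposited for each row and array against negative control beads. The study's methods state quantile normalization, and the summary software is not given in the sources used here. Of the 20589 rows, 1497 combine several probes, shown by detection p-values that are not multiples of 1 in 708, and the background level was taken from the 19092 others.

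Intensities were background corrected (normexp, offset 16), quantile normalized and log2 transformed with limma 3.58.1 in R 4.3.3. The offset understates changes of dim rows. A row was tested if its detection p was below 0.05 on 3 or more of the 16 arrays, which left 11957. limma fits were a natural cubic spline (3 df for time, 12 residual) and 4 windows of 4 time points, with an intensity trend and Benjamini-Hochberg adjustment over all tested rows. The fits were tested on simulated rows with independent noise and changes only between windows. Such rows lack the drift within a window of the real series, so its effect on the tests was not tested. No time point was replicated, so the error is the spread around the curve or within windows, and the number of arrays limits precision.

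The 8 genes, the autophagy list and the markers were chosen with earlier results of these data known. Named besides the 8 were, for each role, the 2 genes with the largest change from 0-9 h to 36-45 h among those past both tests, and for each of the 8 the 3 rows most correlated with it. Promoters are from RefSeq (GRCh38.p14), and so are gene positions. The sources used here name no build for the array, and probe sequences were not used. Alternatives changed background correction, offset, scaling, filter, trend, curve, time points and each array in turn. Figures were drawn with matplotlib 3.10.9.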

Additional observations from a re-analysis of the deposited data

How the results depend on the processing

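Of 955 recomputed values and calls of the 8 genes, 885 kept their direction and their side of the threshold, 55 lost the call, 5 gained it and 10 changed sign. Over the whole series, with median scaling 0 of the 8 genes were lower and the difference of BECN1 was 0.10. With 0 and 3 h against 42 and 45 h, 1 of the 8 was higher and 2 lower, the difference of MAP1LC3B was -0.26, and 13 rows of the wider list were higher. Without the step between 21 and 24 h, a setting chosen after seeing the data, 0 of the 8 were higher and 0 lower, and 8 rows of the wider list were higher and 3 lower. From 0-9 h to 12-21 h, 3 of the 8 were lower with median scaling, and the difference of BECN1 was -0.023 with cyclic loess. A straight line of time in place of the spline called 1 of the 8 and 13 rows of the wider list.

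Leaving out each array in turn, the count of the 8 lower over the whole series ran from 1 to 3 (3 without 9 h), and the count lower from 0-9 h to 12-21 h from 4 (without 0, 3, 12 or 15 h) to 7. The whole-series change ran from -0.68 (without 9 h) to 0.17 (without 0 h) for SQSTM1 and from -0.071 (without 9 h) to 0.35 for MAP1LC3B. That of BECN1 from 0-9 h to 12-21 h ran from -0.047 to 0.042, and from 12-21 h to 24-33 h from -0.0060 to 0.083. Median scaling turned the counts of all rows higher and lower from 1932 and 1798 to 2794 and 1029 over the whole series, from 1807 and 1720 to 2811 and 1030 early, and from 2309 and 2233 to 1719 and 2935 late, with the cause not tested. The straight line called 1953 rows where the spline called 6533. A block for the chip was not run, since no chip is named.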
